A study of Mus musculus with 157 samples.

Results

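Slc25a44 and Amz1 are 2 of the 24940 genes in each of 8 expression tables from mouse bone marrow-derived macrophages, which are macrophages grown from marrow with the growth factor M-CSF. Both rose in most experiments when the cells met crystals and other particles. Amz1 did not pass the test for monosodium urate crystals (MSUc), the crystals of gout, in the vehicle cells of the metformin experiment. In the Tfe3 experiment both rose with MSUc in Tfe3WT libraries and stayed near their resting level in those labelled Tfe3KO. They were chosen by that pattern in the Tfe3 experiment, so every value of that experiment is given as a description, with no test. The other 7 experiments were tested, although the pair was known to respond to MSUc when it was chosen.

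The tested groups received 250 ug/mL of MSUc, calcium pyrophosphate dihydrate crystals (CPPD), silica nanoparticles or aluminium hydroxide (alum), and controls received PBS. The time course set MSUc beside PBS at 10 and 30 minutes and at 1, 2 and 5 hours, with 2 libraries per group. The exposure time of the other experiments is not given in the sources used here. From the particle experiment, 3 libraries each of MSUc, CPPD and PBS were used, and 2 each of silica and alum. Alum has 3 labelled samples but 2 columns of values, and a further silica column matched no sample and was not used. The Tfe3 experiment crossed Tfe3KO and Tfe3WT with MSUc, CPPD, silica and PBS, 3 libraries per group. TfebTg cells, from mice with a Tfeb transgene, had 3 libraries per treatment, and TfebWT cells had 3 with MSUc and 2 with PBS. Bhlhe40KO, Bhlhe41KO and their WT cells had 2 libraries each with MSUc and with PBS. Ampka1KO and Ampka1WT cells, with Ampka1 encoding a catalytic subunit of the energy sensor AMPK, had 3 per group. WT cells with SGC0946 at 1 uM from day 0, an inhibitor of the histone methyltransferase DOT1L, had 3 libraries with MSUc and 2 with PBS. Their vehicle groups had 3. A further column of SGC0946 with PBS matched no sample and was not used. WT cells with metformin, a drug that lowers mitochondrial respiration, and their vehicle groups had 3 per group, at a dose that is not given in the sources used here. Ampka1KO and congenic WT mice were 7 to 8 weeks old. Ampka1 cells were grown in RPMI with 5 ng/mL of M-CSF, and the protocol gives DMEM with 16 ng/mL for the C57BL/6, Tfeb-Tg and Bhlhe cells. The promoter of the transgene, and whether replicates came from separate animals, are not given there either, so p-values measure the spread between libraries.

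SLC25A44 is a mitochondrial inner membrane carrier of branched-chain amino acids, known from brown fat, where it brings valine and leucine to the enzymes that break them down. AMZ1 belongs to the archaelysins, a family of zinc metallopeptidases with few known substrates. TFE3, TFEB, MITF and TFEC are the MiT/TFE factors, which are held in the cytoplasm by the nutrient-sensing kinase mTORC1 through the Rag GTPases and folliculin. On release they enter the nucleus and bind E-box-like sites of lysosomal and metabolic genes.

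In the mm10 build, the tabled Slc25a44 transcript NM_178696 lies on the minus strand of chromosome 3, from 88410494 to 88425141, and is 3578 bases long when spliced. The Amz1 transcript NM_173405 lies on the plus strand of chromosome 5, from 140724127 to 140753312, and is 2675 bases long. RefSeq (GRCm38.p6) held a promoter sequence for 1 of the pair, Amz1. The 250 bases before its start site, on the plus strand at chr5:140723877-140724126, are shown because the E-box forms bound by MiT/TFE factors were searched there:
Amz1: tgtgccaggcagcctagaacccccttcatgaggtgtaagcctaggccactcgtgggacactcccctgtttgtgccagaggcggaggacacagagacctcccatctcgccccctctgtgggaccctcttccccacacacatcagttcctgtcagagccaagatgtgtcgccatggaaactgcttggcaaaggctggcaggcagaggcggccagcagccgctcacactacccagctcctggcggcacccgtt
No base is in capitals because none of the 4 motifs searched on both strands, CACGTG, TCACGTGA, GTCACGTG and TCATGTGA, was in this window or in the 50 bases after it. The first 3 overlap, since the longer ones hold CACGTG. In 32851 promoters of the same length, 7.15%, 0.974%, 2.25% and 0.986% held them, in that order.

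The 115 libraries held 2.12 to 22.1 M reads over genes, with a median of 10.1 M. A library held 131 to 3192 reads of Slc25a44 and 34 to 1435 reads of Amz1. Macrophage markers fitted the label: at least 9 of 10 were at or above 1 TPM in every library of each group, and their sum was 8440 to 41341 TPM. Of 7 neutrophil markers the sum was 1.57 to 1925 TPM, and of 6 stromal markers, led by collagens, 1.88 to 3042 TPM, with the highest neutrophil sum in Tfe3WT libraries with silica and the highest stromal sum in libraries labelled Ampka1KO with MSUc. In bulk RNA, fewer cells of a type and less RNA per cell cannot be told apart. Tables were scaled separately, so levels are compared only within an experiment. Tests are limma on log2(TPM + 1), two-sided, with Benjamini-Hochberg adjustment over all genes tested and a threshold of 0.05, and changes are given as log2 ± SE on that scale, which understates changes of low genes.

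In the time course both genes were flat for the first hour and then rose. Slc25a44 had 22.2 and 25.7 TPM with MSUc at 10 minutes, against 21.4 and 25.6 TPM with PBS. At 1 hour it had 27.4 and 28.0 TPM with MSUc, against 25.5 and 21.7 TPM with PBS. At 1 hour both MSUc libraries stood above both PBS libraries, by less than the PBS libraries differed from each other, and the change of 0.23 ± 0.11 was not called (limma, adjusted p = 0.43). At 2 hours Slc25a44 had 45.8 and 54.3 TPM with MSUc, against 24.0 and 21.8 TPM with PBS. At 5 hours it had 72.3 and 74.5 TPM with MSUc, against 23.5 and 22.5 TPM with PBS. The groups did not overlap at either time, and Slc25a44 rose by 1.09 ± 0.11 at 2 hours (limma, adjusted p = 1.4e-05) and by 1.63 ± 0.11 at 5 hours (adjusted p = 2.1e-07).

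Amz1 followed at a lower level per length. It had 7.92 and 8.90 TPM with MSUc at 1 hour, against 8.03 and 7.43 TPM with PBS. At 2 hours it had 14.8 and 21.4 TPM with MSUc, against 10.1 and 10.3 TPM with PBS. At 5 hours it had 21.3 and 25.7 TPM with MSUc, against 9.08 and 8.72 TPM with PBS. Its rise was 0.75 ± 0.15 at 2 hours (limma, adjusted p = 0.0017) and 1.30 ± 0.15 at 5 hours (adjusted p = 1.2e-05), and the changes of 0.15 ± 0.15, 0.22 ± 0.15 and 0.11 ± 0.15 at 10 minutes, 30 minutes and 1 hour were not called. With the spread taken from the 2-hour groups alone, the Amz1 rise at 2 hours lost its call (adjusted p = 0.068). The share of all tested genes called higher was 0.0486% at 10 minutes, 0.68% at 30 minutes, 2.33% at 1 hour, 11.2% at 2 hours and 16.4% at 5 hours.

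**Figure D1:**
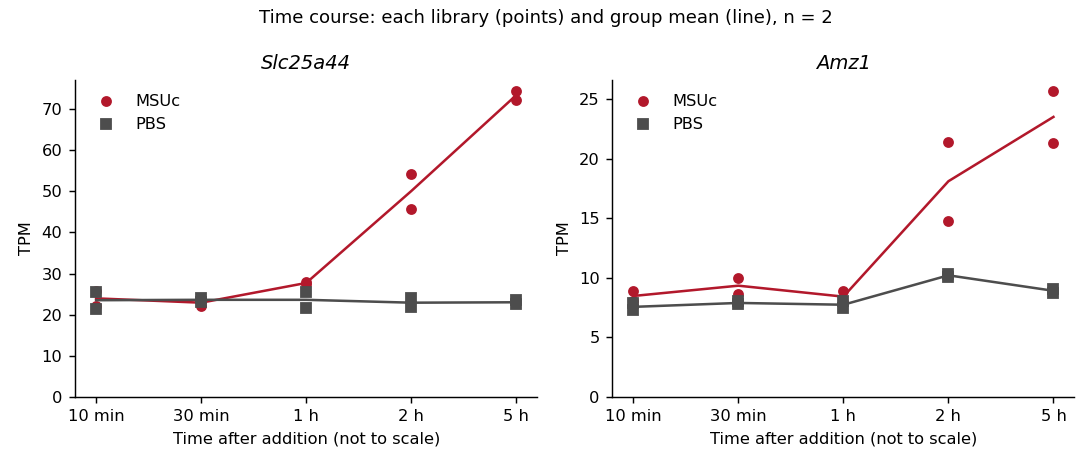
TPM of Slc25a44 (left) and Amz1 (right) in each library of the time course, with MSUc as red circles and PBS as grey squares; lines join group means of 2 libraries and the time axis is not to scale. At 2 and 5 hours both MSUc libraries lie above both PBS libraries for each gene, with Slc25a44 at 72.3 and 74.5 TPM at 5 hours.

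All 4 particles raised both genes, in the same order of group means. Slc25a44 had 48.8, 62.6 and 49.5 TPM with MSUc, 26.4, 29.9 and 26.7 TPM with CPPD, 24.1 and 17.7 TPM with silica and 36.4 and 47.8 TPM with alum, against 15.2, 12 and 14.4 TPM with PBS. Each particle library stood above the highest PBS library, and the 5 groups did not overlap. The changes of Slc25a44 were 1.87 ± 0.15 with MSUc (limma, adjusted p = 6.5e-07), 1.53 ± 0.16 with alum (adjusted p = 1.6e-05), 0.95 ± 0.15 with CPPD (adjusted p = 2.2e-04) and 0.55 ± 0.16 with silica (adjusted p = 0.011). The silica call rested on silica replicate 1, since without it the change was 0.34 (adjusted p = 0.13).

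Amz1 had 25.3, 32.0 and 34.5 TPM with MSUc, 14.4, 16.0 and 16.5 TPM with CPPD, 13.2 and 9.82 TPM with silica and 19.6 and 27.7 TPM with alum, against 5.96, 4.29 and 7.26 TPM with PBS. MSUc and alum overlapped, and all particle libraries lay above all PBS libraries. Its changes were 2.22 ± 0.18 with MSUc, 1.85 ± 0.21 with alum, 1.30 ± 0.18 with CPPD and 0.88 ± 0.21 with silica (limma, adjusted p at most 0.0022). Differences between particles were not tested. After median-of-ratios scaling the median of all genes moved by 0.15 to 0.31 in the MSUc comparisons from 2 hours on, apart from Ampka1KO, metformin and its vehicle, where it moved by 0.04, 0.05 and 0.13. The main TPM scale called 28.7% of the called genes higher with MSUc in the particle experiment, and that scaling 51.1%. Of all genes tested, 18.1% were called higher with MSUc, 16.6% with CPPD, 24.4% with silica and 27.1% with alum. Neutrophil markers summed to 257 to 357 TPM in the silica libraries, against 47.5 to 111 TPM in the PBS libraries, and their part in the silica values was not tested.

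**Figure D2:**
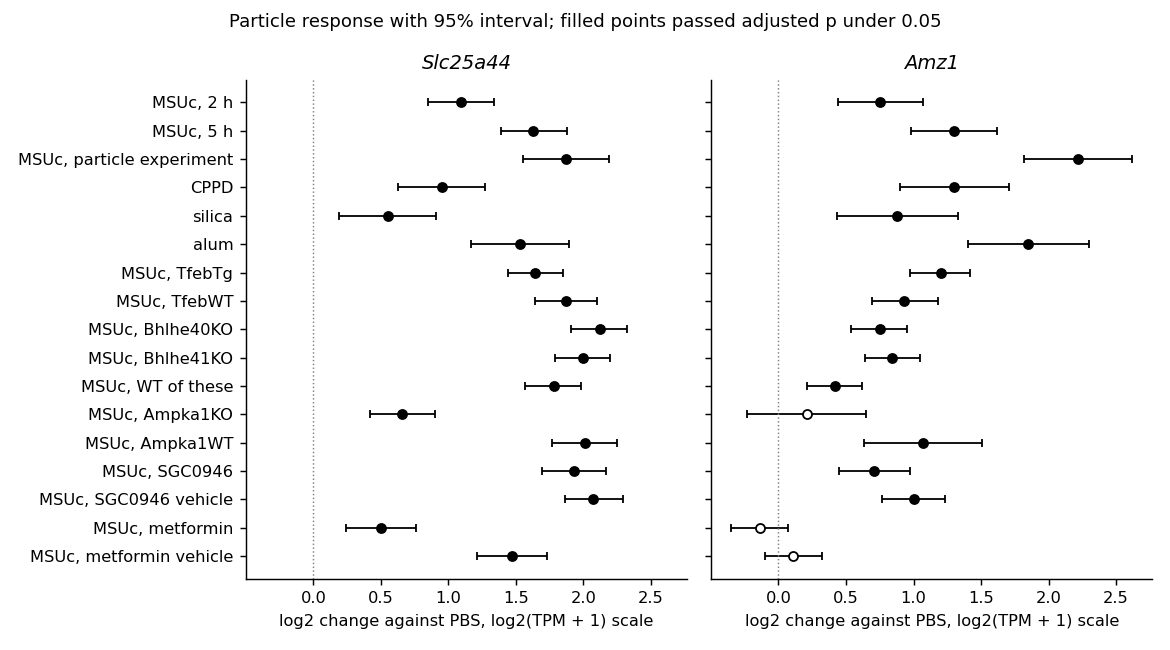
Log2 change of Slc25a44 (left) and Amz1 (right) for each particle against PBS, on the log2(TPM + 1) scale, in the tested experiments from 2 hours on; bars are 95% intervals and filled points passed an adjusted p of 0.05. Slc25a44 lies right of 0 in all 17 rows, and the 3 open points of Amz1 are Ampka1KO cells, metformin and the metformin vehicle.

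A Tfeb transgene left the MSUc rise of both genes in place. Tfeb itself averaged 247 ± 49.3 TPM in TfebTg cells with MSUc, against 28.4 ± 2.65 TPM in TfebWT cells with MSUc (SD, n = 3 each). The Tfeb difference between genotypes was smaller with PBS, at 0.85 ± 0.14 (limma, adjusted p = 0.02), than with MSUc, at 3.06 ± 0.13 (adjusted p = 6.1e-07). Slc25a44 averaged 62.5 ± 5.16 TPM in TfebTg cells with MSUc and 19.3 ± 1.01 TPM with PBS (SD, n = 3 each), and the change was 1.64 ± 0.09 (limma, adjusted p = 1.6e-07). In TfebWT cells it averaged 63.6 ± 3.76 TPM with MSUc (SD, n = 3), against 15.7 and 17.7 TPM with PBS, and the change was 1.87 ± 0.10 (adjusted p = 1.6e-07). Amz1 averaged 41.2 ± 4.80 TPM in TfebTg cells with MSUc and 17.4 ± 0.386 TPM with PBS, a change of 1.20 ± 0.10, and in TfebWT cells 41.9 ± 2.85 TPM with MSUc and 21.4 ± 1.03 TPM with PBS, a change of 0.93 ± 0.11 (limma, adjusted p at most 6.6e-05).

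The MSUc response in TfebTg minus that in TfebWT was -0.23 for Slc25a44, with a 95% interval from -0.54 to 0.08, and 0.26 for Amz1, from -0.07 to 0.59, and neither was called. The 2 genotypes also missed the threshold under PBS and under MSUc for both genes. Under PBS the few libraries did not overlap. TfebTg stood above TfebWT for Slc25a44 (0.20 ± 0.10, limma, adjusted p = 0.77) and below it for Amz1 (-0.29 ± 0.11, adjusted p = 0.52). The share of all genes without overlap is not given here, so the separation is no result about the pair. Under MSUc the difference was -0.03 for each gene, with intervals from -0.23 to 0.18 for Slc25a44 and from -0.25 to 0.19 for Amz1. Called higher with MSUc were 12.5% of genes in TfebTg and 12.6% in TfebWT cells. Called in either direction were 0.717% of genes for the genotype under PBS, 3.48% under MSUc and 0.1% for the difference of responses. The label of TfebWT MSUc replicate 3 says PBS in 1 field and MSUc in its title; placed with PBS, it ended the TfebWT calls, with changes of 1.21 for Slc25a44 and 0.65 for Amz1 (adjusted p = 0.2 for each).

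Bhlhe40 and Bhlhe41 encode repressors that bind the same core E-box. Bhlhe40 averaged 13.9 ± 4.57 TPM in Bhlhe40KO cells with MSUc, against 300 ± 18.9 TPM in WT cells with MSUc (SD, n = 2 each). Bhlhe41 averaged 49.9 ± 0.529 TPM in Bhlhe41KO cells with MSUc, against 92.5 ± 3.42 TPM in WT cells with MSUc, and 48.0 ± 2.47 TPM in Bhlhe41KO cells with PBS, against 52.8 ± 4.32 TPM in WT cells with PBS, so the Bhlhe41 transcript was lower with MSUc and not lost. The deleted part of the gene is not given in the sources used here. Replicate 1 of the WT and Bhlhe40KO groups had Xist at 46.9 to 66.8 TPM, and all other libraries of the experiment were below 2 TPM.

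Slc25a44 rose in all 3 genotypes. It had 80.6 and 72.2 TPM in Bhlhe40KO cells with MSUc, 69.7 and 68.3 TPM in cells labelled Bhlhe41KO and 75.7 and 77.0 TPM in WT cells. With PBS it had 15.4 and 18.4 TPM in Bhlhe40KO, 17.4 and 15.8 TPM in the cells labelled Bhlhe41KO and 21.4 and 21.8 TPM in WT cells. No MSUc library overlapped a PBS library, and the changes were 2.12 ± 0.09, 2.00 ± 0.09 and 1.78 ± 0.09, in that order (limma, adjusted p at most 2.0e-07). Amz1 rose less from a higher level. Its MSUc libraries lay at 46.3 to 58.1 TPM over the 3 genotypes and its PBS libraries at 29.5 to 37.9 TPM, and its changes were 0.75 ± 0.09 in Bhlhe40KO, 0.84 ± 0.09 in the cells labelled Bhlhe41KO and 0.42 ± 0.09 in WT cells (limma, adjusted p at most 0.0033).

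The response of Slc25a44 minus that in WT was 0.34 in Bhlhe40KO (95% interval 0.06 to 0.63) and 0.22 in the cells labelled Bhlhe41KO (-0.06 to 0.51). For Amz1 these were 0.33 (0.04 to 0.62) and 0.43 (0.13 to 0.72), and none passed adjustment (limma, adjusted p = 0.25 to 0.96). The PBS levels of both genes were lower in either deletion than in WT, with differences of -0.36 to -0.23 that were not called (limma, adjusted p = 0.066 to 0.78). Called higher with MSUc were 16.2% of genes in Bhlhe40KO, 14.8% in cells labelled Bhlhe41KO and 17.1% in WT cells. For Bhlhe40KO against WT, 0.0824% of genes were called under PBS, 0.0165% under MSUc and 0.00824% in the response, and for cells labelled Bhlhe41KO 2.76%, 1.33% and 0.132%.

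With the DOT1L inhibitor both genes still rose. Slc25a44 had 84.7 to 97.1 TPM over 3 libraries with SGC0946 and MSUc and 22.5 and 23.4 TPM with SGC0946 and PBS, and the change was 1.93 ± 0.11. Vehicle cells had 83.4 to 104 TPM with MSUc and 19.5 to 22.5 TPM with PBS, a change of 2.07 ± 0.10 (limma, adjusted p at most 1.7e-07). Amz1 had 51.5 to 61.2 TPM with SGC0946 and MSUc, against 33.1 and 33.9 TPM with SGC0946 and PBS, a change of 0.71 ± 0.12 (limma, adjusted p = 5.3e-04). Its vehicle cells had 48.3 to 58.9 TPM with MSUc, against 23.9 to 28.6 TPM with PBS, a change of 1.00 ± 0.10 (adjusted p = 1.7e-05). Amz1 overlapped between SGC0946 and vehicle under MSUc and did not overlap under PBS. The PBS difference of 0.38 ± 0.12 was not called (limma, adjusted p = 0.23). The share of all genes without overlap is not given here, so nothing is read from that separation. Responses with SGC0946 minus those with vehicle were -0.14 for Slc25a44 (95% interval -0.47 to 0.18) and -0.28 for Amz1 (-0.63 to 0.06), neither called. Called higher with MSUc were 15.7% of genes with SGC0946 and 17.8% with vehicle. SGC0946 against vehicle gave calls for 0.673% of genes under PBS, 16.6% under MSUc and 0.0325% in the response.

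In the Tfe3 experiment, which chose the pair, libraries labelled Tfe3KO lacked most of the MSUc rise. The Tfe3 transcript was not lost in them: it averaged 85.7 ± 1.36 TPM in libraries labelled Tfe3KO with MSUc, against 82.1 ± 2.05 TPM in Tfe3WT (SD, n = 3 each), and 68.3 ± 1.66 TPM in those with PBS, against 98.4 ± 5.01 TPM in Tfe3WT. The deleted part is not given in the sources used here, so the transcript does not check the label. The 12 Tfe3WT libraries carry Tfe3KO in their genotype field, and groups follow their titles. Replicate 1 of each Tfe3KO group had Xist at 57.1 to 115 TPM, the other Tfe3KO libraries 1.17 to 6.28 TPM and all Tfe3WT libraries at most 0.243 TPM.

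Slc25a44 had 17.4, 17.4 and 15.5 TPM in libraries labelled Tfe3KO with MSUc, against 50.7, 53.2 and 52.9 TPM in Tfe3WT. With CPPD it had 13.8, 15.0 and 14.3 TPM in those labelled Tfe3KO, against 30.6, 30.7 and 26.7 TPM in Tfe3WT. With silica it had 9.99, 9.68 and 10.1 TPM in those labelled Tfe3KO, against 23.8, 25.2 and 24.3 TPM in Tfe3WT. With PBS it had 13.8, 14.8 and 12.7 TPM in those labelled Tfe3KO, against 14.9, 13.8 and 15.3 TPM in Tfe3WT. The genotypes overlapped with PBS alone, and each Tfe3KO library with a particle lay below each Tfe3WT library with it. MSUc libraries labelled Tfe3KO still lay above the PBS libraries labelled Tfe3KO, by 0.27 ± 0.07, against 1.76 ± 0.07 in Tfe3WT. With silica those labelled Tfe3KO lay below their PBS libraries, by -0.43 ± 0.07, against 0.70 ± 0.07 in Tfe3WT.

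Amz1 had 7.68, 6.97 and 5.41 TPM in libraries labelled Tfe3KO with MSUc, against 22.5, 30.4 and 27.8 TPM in Tfe3WT. Over CPPD and silica it ranged from 2.94 to 4.10 TPM in those labelled Tfe3KO, against 10.6 to 14.8 TPM in Tfe3WT. With PBS it ranged from 5.50 to 6.79 TPM in those labelled Tfe3KO, against 5.74 to 7.82 TPM in Tfe3WT, and the genotypes overlapped. Every Amz1 value with CPPD or silica in libraries labelled Tfe3KO was below their lowest PBS value, with changes of -0.70 ± 0.15 with CPPD and -0.61 ± 0.15 with silica, against 0.79 ± 0.15 and 0.71 ± 0.15 in Tfe3WT. The MSUc change of Amz1 was 0.14 ± 0.15 in those labelled Tfe3KO, against 1.80 ± 0.15 in Tfe3WT.

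The MSUc response in libraries labelled Tfe3KO minus that in Tfe3WT was -1.50 ± 0.10 for Slc25a44 and -1.66 ± 0.21 for Amz1. Without Tfe3KO MSUc replicate 1, a library with high Xist, these were -1.53 and -1.75. That fit kept Tfe3KO PBS replicate 1, which also had high Xist, so it does not remove the Xist difference. The difference of responses was -0.89 ± 0.10 and -1.48 ± 0.21 with CPPD, and -1.13 ± 0.10 and -1.32 ± 0.21 with silica, in the same gene order. These comparisons share their PBS libraries. Across all genes, 1.31% were called lower and 0.414% higher in the MSUc response of libraries labelled Tfe3KO, from which nothing is read for the pair. Neutrophil markers summed to 290 to 446 TPM in libraries labelled Tfe3KO with MSUc, against 522 to 687 TPM in Tfe3WT with MSUc, and macrophage markers to 16963 to 19366 TPM against 18913 to 19857 TPM. Their part in the result was not tested.

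**Figure D3:**
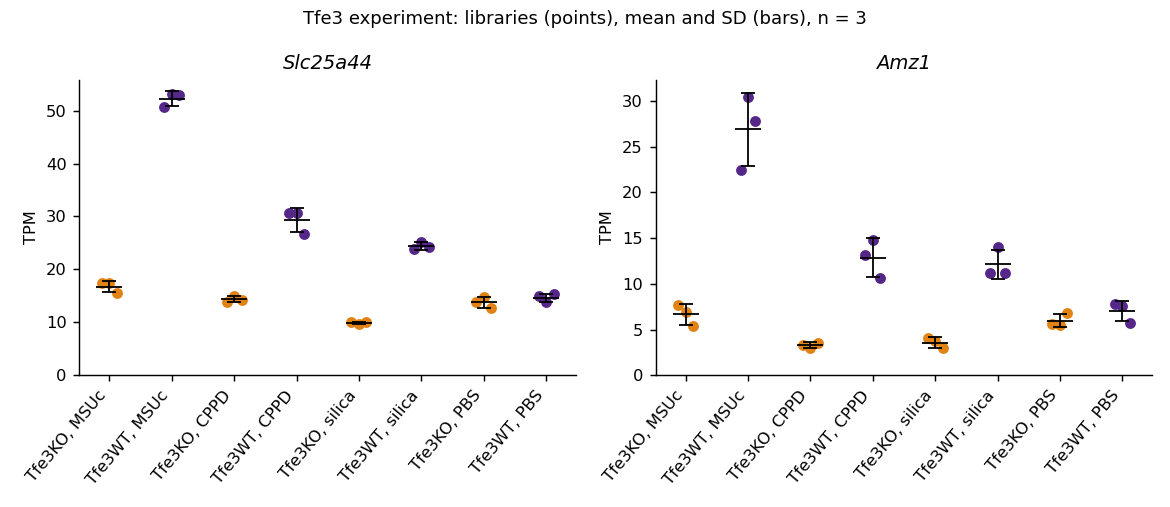
TPM of Slc25a44 (left) and Amz1 (right) in each library of the Tfe3 experiment, with libraries labelled Tfe3KO in orange and Tfe3WT in purple; bars are mean ± SD of 3 libraries. The genotypes overlap with PBS and lie apart with each particle, with Slc25a44 at 15.5 to 17.4 TPM in Tfe3KO and 50.7 to 53.2 TPM in Tfe3WT with MSUc.

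Both genes also responded less to MSUc in cells labelled Ampka1KO. Prkaa1, the AMPK alpha 1 gene that the label names, was not lost: it averaged 28.8 ± 2.26 TPM in cells labelled Ampka1KO with MSUc, against 22.0 ± 1.15 TPM in Ampka1WT with MSUc (SD, n = 3 each). The deleted part is not given in the sources used here, so this does not check the label. Slc25a44 had 38.5, 39.7 and 44.5 TPM in cells labelled Ampka1KO with MSUc, and 30.1, 24.1 and 22.7 TPM with PBS. In Ampka1WT cells it had 86.1, 74.7 and 72.2 TPM with MSUc, and 17.5, 18.8 and 19.2 TPM with PBS. Cells labelled Ampka1KO were thus above Ampka1WT with PBS and below with MSUc, without overlap. Slc25a44 rose by 0.66 ± 0.11 in cells labelled Ampka1KO (limma, adjusted p = 3.5e-04) and by 2.01 ± 0.11 in Ampka1WT (adjusted p = 4.8e-08), and the difference of responses was -1.35 ± 0.15 (adjusted p = 4.4e-05).

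Amz1 had 8.33, 7.25 and 8.50 TPM in cells labelled Ampka1KO with MSUc, and 10.1, 4.76 and 6.38 TPM with PBS. In Ampka1WT cells it had 30, 27.5 and 34.0 TPM with MSUc, and 11.9, 14.1 and 16.2 TPM with PBS. MSUc and PBS overlapped in cells labelled Ampka1KO and not in Ampka1WT. The change was 0.21 ± 0.20 in cells labelled Ampka1KO (limma, adjusted p = 0.39; 95% interval -0.23 to 0.65) and 1.07 ± 0.20 in Ampka1WT (adjusted p = 6.3e-04). Without Ampka1KO PBS replicate 1 the first of these was 0.47 (adjusted p = 0.027). The difference of responses was -0.86 ± 0.29 (limma, adjusted p = 0.026), and it lost its call without Ampka1WT PBS replicate 1 (-0.75), without Ampka1WT MSUc replicate 3 (-0.78) or without Ampka1KO MSUc replicate 2 (-0.80), with adjusted p of 0.067, 0.062 and 0.053.

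With PBS, cells labelled Ampka1KO had higher Slc25a44 (0.44 ± 0.11, limma, adjusted p = 0.0058) and lower Amz1 (-0.94 ± 0.20, adjusted p = 0.0023) than Ampka1WT cells. With MSUc both were lower, by -0.91 ± 0.11 and -1.80 ± 0.20 (adjusted p at most 1.3e-05). These calls stand against a background in which 47.7% of genes were called for the genotype with PBS, 71.8% with MSUc and 50.6% in the response. A call for 2 genes of 2 is therefore no result about the pair. Called higher with MSUc were 29.7% of genes in cells labelled Ampka1KO and 19.7% in Ampka1WT. Among called genes of the difference of responses, 68.5% were higher, and 45.8% after median-of-ratios scaling, which moved the median of all genes by -0.26. That scaling gave -1.66 for Slc25a44 and -1.17 for Amz1, and it reduced the PBS difference of Slc25a44 to 0.24 (adjusted p = 0.13).

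The marker lists moved with the Ampka1 groups. The 6 stromal markers summed to 2415 to 3042 TPM in cells labelled Ampka1KO with MSUc and 859 to 1398 TPM with PBS, and in Ampka1WT to 67.6 to 220 TPM with MSUc and 78.8 to 146 TPM with PBS. The 10 macrophage markers summed to 8440 to 10592 TPM in cells labelled Ampka1KO with MSUc and 24851 to 27471 TPM with PBS, and in Ampka1WT to 29436 to 35263 TPM with MSUc and 37136 to 41341 TPM with PBS. The 7 neutrophil markers summed to 334 to 391 TPM in cells labelled Ampka1KO with MSUc, against 11.4 to 64.9 TPM in Ampka1WT with MSUc. Their part in the levels of both genes was not tested.

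Metformin lowered the MSUc response of Slc25a44. It had 41, 50.6 and 51.7 TPM with metformin and MSUc, and 39.1, 32.6 and 28.9 TPM with metformin and PBS. Vehicle cells had 67.9, 61.2 and 71.7 TPM with MSUc, and 23.9, 22.4 and 24.1 TPM with PBS. Metformin libraries stood above vehicle with PBS and below vehicle with MSUc, without overlap. Slc25a44 rose by 0.50 ± 0.12 with metformin (limma, adjusted p = 0.009) and by 1.47 ± 0.12 with vehicle (adjusted p = 1.1e-06), and the difference was -0.97 ± 0.17 (adjusted p = 0.0039). Metformin against vehicle was 0.49 ± 0.12 with PBS (adjusted p = 0.0066) and -0.48 ± 0.12 with MSUc (adjusted p = 0.0068).

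Amz1 did not pass the test for MSUc in this experiment. It had 42.1, 45.3 and 49.8 TPM with metformin and MSUc, and 51.5, 48.9 and 50.4 TPM with metformin and PBS. Vehicle cells had 45.3, 40.5 and 44.7 TPM with MSUc, and 42.6, 43.2 and 35.2 TPM with PBS. MSUc and PBS libraries overlapped with metformin and with vehicle. The change was -0.14 ± 0.10 with metformin (95% interval -0.35 to 0.07) and 0.11 ± 0.10 with vehicle (-0.10 to 0.32; limma, adjusted p = 0.35), which median-of-ratios scaling made 0.26 (adjusted p = 0.023). The difference of responses was -0.25 ± 0.14 (adjusted p = 0.26). With PBS, Amz1 was higher with metformin than with vehicle by 0.32 ± 0.10 (limma, adjusted p = 0.02), a call lost without vehicle PBS replicate 3 (0.22), metformin PBS replicate 1 (0.30) or metformin PBS replicate 3 (0.31). With MSUc that difference was 0.07 ± 0.10, and -0.10 after median-of-ratios scaling, not called.

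Called higher with MSUc were 11.8% of genes with metformin and 19.6% with vehicle. Metformin against vehicle gave calls for 39.5% of genes with PBS, 43.6% with MSUc and 12.2% in the response. Macrophage markers summed to 13036 to 15541 TPM with metformin and MSUc, against 19309 to 22372 TPM with vehicle and MSUc, and to 11508 to 13074 TPM with metformin and PBS, against 23224 to 26033 TPM with vehicle and PBS. Stromal markers summed to 160 to 350 TPM with metformin and MSUc, against 484 to 616 TPM with vehicle and MSUc. Their part was not tested.

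**Figure D4:**
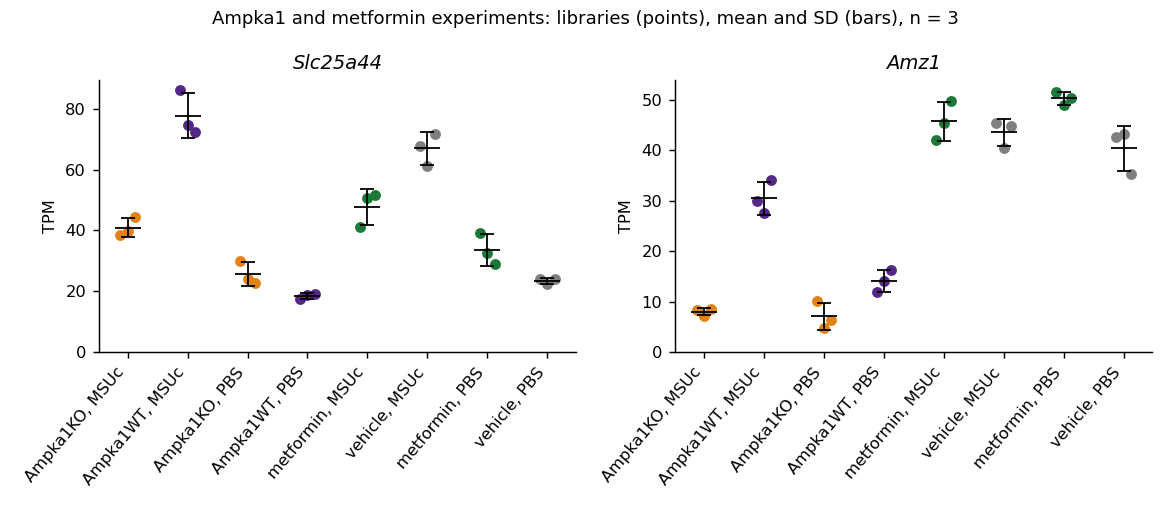
TPM of Slc25a44 (left) and Amz1 (right) in each library of the Ampka1 and metformin experiments; bars are mean ± SD of 3 libraries. Slc25a44 with MSUc lies at 38.5 to 44.5 TPM in cells labelled Ampka1KO and 72.2 to 86.1 TPM in Ampka1WT, and Amz1 with metformin or its vehicle stays between 35.2 and 51.5 TPM.

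Most other genes of branched-chain amino acid use moved against Slc25a44 with MSUc. Of 28 tested with MSUc in the particle experiment, 2 rose and 25 fell, with a median of -0.82. Over all genes the median was -0.29, and 18.1% rose and 44.9% fell. With CPPD 3 of the 28 rose and 18 fell, with silica 8 and 10, and with alum 3 and 8. The list medians were -0.51, -0.03 and -0.15, in that order, against -0.20, -0.25 and 0.08 over all genes. Of all genes, 16.6% rose and 35.8% fell with CPPD, 24.4% and 43.9% with silica, and 27.1% and 19.2% with alum. Slc3a2, a subunit of the cell-surface transporter that takes these amino acids up, averaged 654 ± 58.3 TPM with MSUc and 146 ± 3.34 TPM with PBS (SD, n = 3 each), a rise of 2.16 ± 0.13. The breakdown enzyme gene Echs1 averaged 18.8 ± 0.417 TPM with MSUc and 50.5 ± 2.31 TPM with PBS, and Acad8 5.81 ± 0.617 TPM with MSUc and 14.6 ± 0.384 TPM with PBS. They fell by 1.38 ± 0.09 and 1.20 ± 0.11, and Acat1, which acts at the end of isoleucine breakdown, fell by 1.07 ± 0.11 (limma, adjusted p at most 5.4e-06 for all 4). In the MSUc response of libraries labelled Tfe3KO against Tfe3WT, 0.414% of all genes rose and 1.31% fell. There, 0 of 29 genes of the list rose and 1 fell, Mcee of the propionate pathway, by 0.77 ± 0.19 (limma, adjusted p = 0.038). It averaged 12.3 ± 1.41 TPM in libraries labelled Tfe3KO with MSUc, against 19.3 ± 1.10 TPM in Tfe3WT. The Mcee call was lost with limma-voom and, among other libraries left out, without Tfe3KO MSUc replicate 2 or 3. At an unadjusted p below 0.05, Mut, Pcca and Aldh6a1 stood at -0.27 ± 0.10, -0.29 ± 0.13 and -0.37 ± 0.17, and none of these was called. In that comparison 1576 of all 12796 genes had an unadjusted p below 0.05.

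Among the other mitochondrial carriers, 4 of 38 tested rose and 22 fell with MSUc in the particle experiment, with a median of -0.45. Median-of-ratios scaling moved the median of all genes by 0.28 in this comparison and gave 9 risen and 13 fallen carriers of 38, where 3513 and 3359 of all 12314 genes rose and fell. Slc25a25, an ATP-Mg/phosphate carrier, rose by 1.58 ± 0.14 and Slc25a33, a pyrimidine nucleotide carrier, by 1.38 ± 0.15. Slc25a45 fell by 1.49 ± 0.15 and Slc25a16 by 1.08 ± 0.12 (limma, adjusted p at most 9.1e-06 for these 4). None of the 38 was called in the MSUc response of libraries labelled Tfe3KO against Tfe3WT with limma or limma-voom. Of all genes, 1.73% were called there with limma, so no call among 38 is near that share. At an unadjusted p below 0.05 stood 4 of the 38, and 1576 of all 12796 genes. Mtch2, Slc25a28, Slc25a16 and Slc25a42 came nearest, at -0.37 ± 0.09, 0.61 ± 0.17, -0.36 ± 0.15 and -0.48 ± 0.22 (adjusted p = 0.051 to 0.39). Amz2, the only other archaelysin in the tables, changed by 0.09 ± 0.10 with MSUc in the particle experiment (adjusted p = 0.45) and by -0.12 ± 0.12 in the response of libraries labelled Tfe3KO (adjusted p = 0.78).

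The factors and their regulators were read from the same fits. With MSUc in the particle experiment Tfec rose by 1.84 ± 0.14 and Mitf by 0.74 ± 0.10 (limma, adjusted p at most 5.5e-05), while Tfe3 and Tfeb stood at 0.02 ± 0.15 and -0.11 ± 0.23. In libraries labelled Tfe3KO with MSUc, Mitf averaged 54.2 ± 9.35 TPM, against 38.8 ± 4.13 TPM in Tfe3WT, and Tfec averaged 29.1 ± 3.77 TPM, against 18.2 ± 0.650 TPM in Tfe3WT (SD, n = 3 each). Tfeb averaged 42.6 ± 2.09 TPM there, against 33.5 ± 2.82 TPM in Tfe3WT. All 3 were called higher (limma, adjusted p at most 0.014). In the difference of responses the Tfe3 transcript itself was called, at 0.58 ± 0.12 (adjusted p = 0.012), with its PBS level lower in libraries labelled Tfe3KO. Of 12 folliculin and Rag genes, Rragc, a Rag GTPase, and Fnip2, a folliculin partner, fell in the response of libraries labelled Tfe3KO, by 0.77 ± 0.09 and 0.61 ± 0.13 (adjusted p at most 0.017). Of 32 lysosomal CLEAR genes 6 fell and 0 rose, with a median of -0.26, against -0.01 over all genes. Of all genes, 1.31% fell and 0.414% rose in this comparison. The sialidase gene Neu1 averaged 23.6 ± 0.998 TPM in libraries labelled Tfe3KO with MSUc, against 52.4 ± 0.798 TPM in Tfe3WT, and the lysosomal calcium channel gene Mcoln1 19.8 ± 1.13 TPM in those labelled Tfe3KO, against 40 ± 2.04 TPM in Tfe3WT. The differences of responses were -0.62 ± 0.11 and -0.55 ± 0.10, and -0.51 ± 0.11 for the lysosomal hydrolase gene Gaa (limma, adjusted p at most 0.018 for these 3). With PBS, 10 of the 32 CLEAR genes were called lower in libraries labelled Tfe3KO than in Tfe3WT, and 0 higher. Of all genes, 1.38% were called lower with PBS and 0.985% higher. Levels with MSUc can therefore include a difference that was present with PBS. In the response of cells labelled Ampka1KO, 27 of 32 CLEAR genes fell, where 15.9% of all genes did.

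Genes beside the pair were tested in the same fits. Of 12 genes within 100 kb of Slc25a44, 8 were tested, and none was called in the MSUc response of libraries labelled Tfe3KO with limma. Of 4 within 100 kb of Amz1, all were tested and none was called. Since 1.73% of all genes were called in that comparison, the lack of calls here is no result about the pair. In the particle experiment MSUc raised Smg5 by 0.81 ± 0.10, Lmna by 0.60 ± 0.12 and Cct3 by 0.36 ± 0.10, and lowered Sema4a, whose change was -1.21 ± 0.14, and Pmf1, at -0.92 ± 0.19 (limma, adjusted p at most 0.0062). Pmf1 begins 97 bases past the end of Slc25a44 on the same strand, and it averaged 7.91 ± 1.36 TPM with MSUc, against 15.9 ± 2.08 TPM with PBS (SD, n = 3 each). Glmp, Tmem79 and the microRNA gene Mir7011 stood at 0.16 ± 0.13, 0.05 ± 0.18 and -0.53 ± 0.63, and Paqr6, Bglap3, Bglap2 and Bglap were listed at 0. In the response of cells labelled Ampka1KO, Glmp, a lysosomal membrane protein gene, was lower, at -0.95 ± 0.10 (limma, adjusted p = 3.2e-05), as were Smg5 and Tmem79. Of the 8 tested, 0 were called higher there, and of all genes 34.7% were called higher and 15.9% lower. In libraries labelled Tfe3KO with MSUc, Glmp was lower than in Tfe3WT, at -0.63 ± 0.09 (limma, adjusted p = 7.9e-05), and Lmna higher, at 0.40 ± 0.08 (adjusted p = 0.0033). Of all genes, 4.1% were called higher and 6.63% lower in that comparison.

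All 4 neighbours of Amz1 fell with MSUc in the particle experiment, where 44.9% of all genes tested fell. Gna12, a G protein subunit gene on the opposite strand, averaged 46.4 ± 4.42 TPM with MSUc, against 149 ± 6.47 TPM with PBS (SD, n = 3 each), and fell by 1.66 ± 0.17. Iqce, Brat1 and Ttyh3 fell by 1.48 ± 0.12, 0.78 ± 0.16 and 0.77 ± 0.23 (limma, adjusted p at most 0.011 for all 4). The 4 also fell at 5 hours in the time course, where 32.9% of all genes tested fell. In the response of cells labelled Ampka1KO, Iqce, Brat1 and Gna12 were called higher, at 0.66 ± 0.16, 0.65 ± 0.17 and 0.42 ± 0.14. Ttyh3 was called lower there, at -0.58 ± 0.21 (limma, adjusted p at most 0.04 for all 4).

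TFE3 peaks gained with MSUc lay within 100 kb of both genes, and TFEB peaks gained with MSUc within 100 kb of Amz1 alone of the pair. Such peaks were common: 47.3% of tested genes had a TFE3 peak within 100 kb. For TFEB, 45.5% had at least 1 and 22.7% had 2 or more, as Amz1 did. The deposited lists hold 4446 TFE3, 5667 TFEB and 4756 DOT1L peaks gained, all more than 3000 bases from a start site (the nearest at 3001), so they say nothing of promoters. The labels used here give 1 TFE3 ChIP library with MSUc and 2 with PBS, 2 TFEB libraries with MSUc and 3 with PBS, and 3 DOT1L libraries with each. How the libraries were combined into the lists is not given in the sources used here, and the gained TFE3 peaks have 1 labelled MSUc library and no replicate of it here. Around Amz1, 5 TFE3 peaks were centred within 100 kb of the start site, and 4 of them had Amz1 as the authors' nearest gene. Those 4 lie at chr5:140735321-140735574 in intron 2 of 7 of Amz1, at chr5:140749606-140749849 in intron 7 of 7, and at chr5:140765618-140765910 and chr5:140768454-140768761, both in intron 2 of 3 of Gna12, 41.6 and 44.5 kb past the Amz1 start. Of 12314 tested genes, 3.59% had 5 or more TFE3 peaks within 100 kb and 1.19% were the nearest gene of 4 or more. The fifth lies in Ttyh3, at -81.9 kb.

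The intron 2 peak of Amz1, 11.3 kb past the start, was in 3 lists. The TFEB peak at chr5:140735326-140735563 lies wholly within the TFE3 peak, sharing 238 bases, and the DOT1L peak at chr5:140735351-140735635 shares 224 bases with it. Of the 4446 TFE3 peaks, 41.7% overlapped a TFEB peak by at least 1 base and 19.6% overlapped both a TFEB and a DOT1L peak. Such a triple place had its nearest gene among 536 of the tested genes, or 4.35%. A further TFEB peak, in Gna12 58.2 kb past the Amz1 start, overlapped a DOT1L peak by 243 bases and no TFE3 peak. No gained or reduced H3K27ac or H3K4me3 region was centred within 100 kb of the Amz1 start. By list, 13.3% to 23.8% of tested genes had such a region.

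Around Slc25a44 there was no TFEB peak within 100 kb, where 45.5% of tested genes had at least 1. There were 3 TFE3 peaks, all intergenic and upstream, at chr3:88465168-88465383, chr3:88510007-88510235 and chr3:88521781-88522011, centred at -40.1, -85.0 and -96.8 kb from the start. The authors' nearest genes were Sema4a, Lmna and Mex3a, and no peak of any list was assigned to Slc25a44. Having 3 or more TFE3 peaks within 100 kb was common, at 12.4% of tested genes. The DOT1L peaks nearest to Slc25a44 were at -87.3 and -88.1 kb, and 18.6% of tested genes had 2 or more within 100 kb. For 19.2% of tested genes a gained H3K27ac region lay within 100 kb. An H3K27ac region gained with MSUc lies in intron 1 of 21 of Smg5, at chr3:88336638-88338638, 87.5 kb past the Slc25a44 start, with a log2 change of 1.10 and an adjusted p of 0.015 in the authors' deposited table. Whether any of these regions acts on either gene was not tested.

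**Figure D5:**
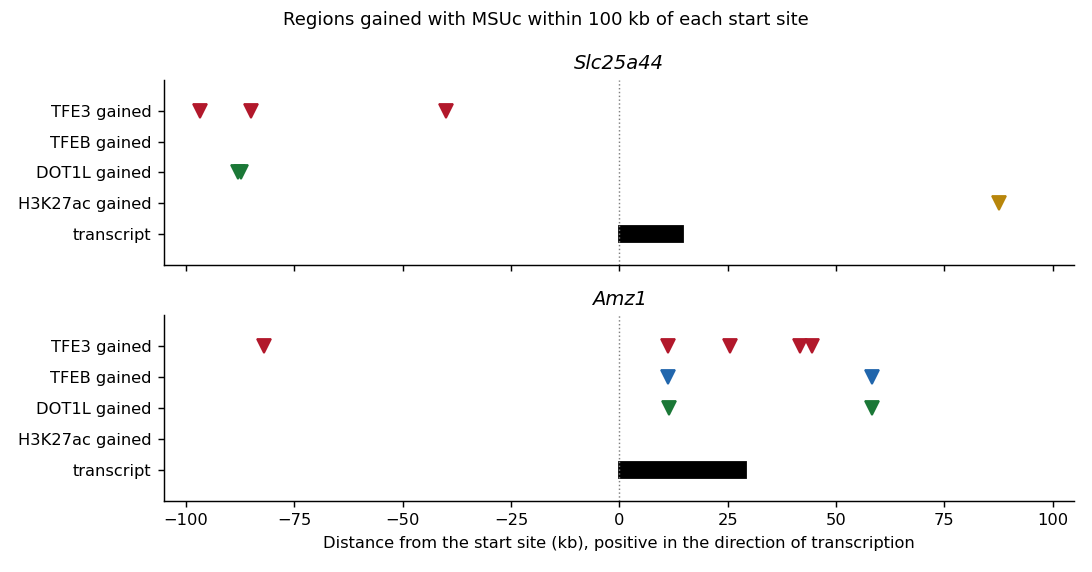
Distance in kb of regions gained with MSUc from the start site of Slc25a44 (top) and Amz1 (bottom), positive in the direction of transcription; triangles mark region centres by list and the black bar is the transcript. Amz1 has 4 TFE3 peaks between 11.3 and 44.5 kb past its start, the first with TFEB and DOT1L peaks on it, and the Slc25a44 TFE3 peaks lie from -96.8 to -40.1 kb.

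Across the 45 RNA groups, with each group mean centred on its experiment, Slc25a44 and Amz1 had a Pearson r of 0.82, and 0.81 over the 37 groups outside the Tfe3 experiment. The points share libraries and the MSUc against PBS split, so r is a description. Slc25a44 ranked 17 in likeness to Amz1 among 11186 genes tested in all tables, and Amz1 ranked 372 in likeness to Slc25a44. Without the Tfe3 experiment, which chose the pair, these ranks were 140 and 737. The 5 genes most like Slc25a44 were Tollip, which encodes a Toll-interacting adaptor, the circadian repressor gene Cry1, the vitamin B6-binding protein gene Plpbp, the small Maf gene Mafk and the ubiquitin ligase gene Rnf185, with r from 0.95 to 0.96. The 5 most like Amz1 were Atp6v0d1, a proton pump subunit gene, Ctns, the lysosomal cystine exporter gene, Rasgef1a, the endosomal tethering gene Vps18 and Fam50a, with r from 0.87 to 0.91. Likeness used the Tfe3 groups, so the changes of these genes there are a description. In the MSUc response of libraries labelled Tfe3KO minus Tfe3WT, all 10 stood below 0, from -1.17 ± 0.11 for Ctns and -1.02 ± 0.20 for Cry1 to -0.25 ± 0.17 for Fam50a. Without the Tfe3 experiment 2 of the 5 for Slc25a44 and 1 of the 5 for Amz1 were still among the nearest 5.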

How the data were processed

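RNA was poly(A)-selected, and STAR, HOMER and the mm10 build are named in the submitters' processing notes. The deposited values are TPM per transcript by the authors, per the file headers. Not used were 28 columns of per-sample values, namely tag counts of the histone region lists and expression columns that matched no sample. TFE3, TFEB and DOT1L peak lists carry positions and distances to start sites, and the deposited H3K27ac and H3K4me3 region lists the authors' log2 changes and p-values. Values times length came out as whole reads, within 0.15 reads, for at least 99.99% of low values, and gave depth. Genes were tested if they reached 1 TPM in at least as many libraries as an experiment's smallest group held, on log2(TPM + 1) with limma 3.58.1 (trend, R 4.3.3), all groups of an experiment in 1 fit; the test was checked on simulated data. The members and lists were chosen with earlier results of these data known. Genes named are the pair, the MiT/TFE factors, the 4 of smallest p in each list, neighbours within 100 kb and the 5 most alike; 1 gene that this rule names is not reported here. Same-numbered libraries deviated together in the particle experiment with MSUc (r 0.15 to 0.31), in the libraries labelled Tfe3KO with each particle, in Tfe3WT with CPPD and silica (0.13 to 0.41 over these) and for metformin against vehicle (0.16 to 0.31), so those numbers pair them. Alternatives were 2 pseudocounts, no filter, scaling, a replicate block, libraries left out and limma-voom on the reads.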

Additional observations from a re-analysis of the deposited data

Results flagged for a closer look

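The MSUc response differed between groups, by a test of the difference itself, in 3 results. In cells labelled Ampka1KO minus Ampka1WT it was -1.35 for Slc25a44 and -0.86 for Amz1, where 50.6% of all genes were called. With metformin minus vehicle it was -0.97 for Slc25a44, where 12.2% of all genes were called.

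In the Tfe3 experiment, every library labelled Tfe3KO lay below its PBS mean and every Tfe3WT library above its own for Slc25a44 with silica, for Amz1 with CPPD and for Amz1 with silica. The responses differed by -1.13, -1.48 and -1.32, in that order. Neither gene showed this pattern with MSUc, nor did Slc25a44 with CPPD. These differences were not tested, because the genes were chosen on this experiment. The share of all genes with this pattern is not given here, so nothing is read from it for the pair.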

How the results depend on the processing

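Of 76 tested results of the pair, 41 were called. Over 570 alternatives other than left-out libraries, 563 kept their status as called or not, and no called result changed direction. Over 448 left-out libraries, 440 kept it, and no called result changed direction. Direction was not counted for results called in neither fit, and some of those changed sign. With a library left out, the change of Slc25a44 at 10 minutes ranged from -0.1 to 0.15. The cause of the changes below was not tested. Calls were lost for Amz1 at 2 hours with those groups alone (0.75, adjusted p = 0.068), for both genes in TfebWT with replicate 3 placed in PBS (1.21 and 0.65, adjusted p = 0.2 each) and for Slc25a44 in Ampka1KO against Ampka1WT with PBS under median-of-ratios scaling (0.24, adjusted p = 0.13). Calls were gained with limma-voom for Slc25a44 in Bhlhe41KO against WT with PBS (-0.38, adjusted p = 0.035) and Amz1 in SGC0946 against vehicle with PBS (0.47, adjusted p = 0.022), and under median-of-ratios scaling for Amz1 in metformin vehicle with MSUc (0.26, adjusted p = 0.023).

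With a library left out, silica changed Slc25a44 by 0.34 to 0.76, MSUc changed Amz1 in cells labelled Ampka1KO by -0.01 to 0.47, the Amz1 difference of responses in the Ampka1 experiment was -1.08 to -0.60, and Amz1 in metformin against vehicle with PBS was 0.22 to 0.37.

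In the Tfe3 experiment, 28 of 374 untested alternatives moved beyond the spread between replicates, and none reversed a change larger than that spread. Slc25a44 in Tfe3WT with MSUc was 1.83 with a pseudocount of 0.1 and 1.98 with median-of-ratios scaling. That scaling also gave 0.50 for Slc25a44 and 0.35 for Amz1 in libraries labelled Tfe3KO with MSUc, 1.19 and 1.02 in Tfe3WT with CPPD, 0.30 and -0.49 in those labelled Tfe3KO with CPPD, -0.29 and 0.78 for Slc25a44 with silica in those labelled Tfe3KO and in Tfe3WT, and -1.14 for its genotype difference with silica. A pseudocount of 0.1 gave -0.84 and limma-voom -0.88 for Amz1 in libraries labelled Tfe3KO with CPPD, and limma-voom 0.76 for Slc25a44 in Tfe3WT with silica. Genotype differences under limma-voom were -1.66 for Slc25a44 with MSUc, -1.97 for Amz1 with CPPD, -1.32 for Slc25a44 and -1.75 for Amz1 with silica. With a pseudocount of 0.1 they were -1.93 for Amz1 with CPPD, -1.29 for Slc25a44 and -1.73 for Amz1 with silica, and -1.26 for Slc25a44 with silica at a pseudocount of 0.5. Differences of responses were -1.70 with that pseudocount of 0.1 and -1.73 with limma-voom for Amz1 with CPPD, and with either -1.20 for Slc25a44 and -1.51 for Amz1 with silica.

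Within 50 kb 1 TFE3 peak lay near Slc25a44, and 0 within 20 kb or by nearest gene. Near Amz1, 1 TFE3 peak lay within 20 kb, and 1 TFEB peak within 50 kb, within 20 kb and by nearest gene. Of tested genes, 30.9% had a TFE3 peak within 50 kb and 14.4% within 20 kb. A TFEB peak lay within 50 kb of 28.2%, within 20 kb of 13.1% and by nearest gene at 18.2%.

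A replicate block changed none of the 76 calls, with a largest shift of 0.10 in a change. Same-numbered time course libraries went opposite ways from 30 minutes on (r -0.76 to -0.63); a crossed replicate block, chosen after seeing the data, called 80, 433, 4416 and 6358 genes at 30 minutes, 1, 2 and 5 hours, against 84, 405, 4133 and 6093 without it, and 383 against 335 for Bhlhe41KO with PBS. Calls over all genes moved by over 1.5 times in 47 of 376 alternatives; the MSUc response of libraries labelled Tfe3KO gave 221, and 78 with the compared groups alone. Groups of 2 or 3 libraries limit precision, as do Amz1 counts as low as 34 reads in a library.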
